A study of Mus musculus with 1920 samples.

Results

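The cells described here were Lgr5-positive intestinal stem cells (ISCs) with high levels of DNA replication genes, 529 of the 1920 single cells sequenced. They were chosen by measured values. A base set of 1588 cells was formed from cells with at least 1000 detected genes, at least 50 CPM of Lgr5 (the reads of a gene scaled to a fixed total per cell) and at least 1000 CPM of Olfm4. Each cell was then given an M score, the mean log2(CPM + 1) of Mki67, Top2a, Ccnb1, Ccnb2, Cdk1, Birc5, Aurkb, Cdc20, Ube2c and Tpx2, and an S score, the same mean for Pcna, Mcm2, Mcm3, Mcm4, Mcm5, Mcm6, Mcm7, Tyms, Rrm2 and Cdc6. The 529 cells with the highest M score over all mice were set aside as M-high cells, and the remainder was divided at its median S score into 529 S-phase members and 530 low-cycle cells. The lowest member had an S score of 5.12 and the highest low-cycle cell 5.11, and the lowest M-high cell had an M score of 6.37 against 6.33 for the cell just below it. Within 0.25 of the S cut lay 47 members and 53 low-cycle cells, so the division cut through a continuous range of scores.

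The cells came from 3 young and 4 aged mice that carried the allele B6.129P2-Lgr5tm1(cre/ERT2)Cle/J, in which eGFP and a tamoxifen-inducible Cre are expressed from the Lgr5 locus, and were sorted for high Lgr5 reporter signal. All groups shared this allele and this sort, no treatment was labelled, and the labels gave the ages only as young and old. Each cell was lysed in its own well of a plate and its mRNA was primed with polyT. No molecular identifiers were added, and reads therefore cannot be taken as separate molecules. A mouse was the unit of replication, and the value of a mouse is the CPM of the summed reads of its cells in a class. The young mice contributed 52, 124 and 102 members and the aged mice 51, 36, 50 and 114, with 12776982 to 46855200 summed reads per mouse. The median member held 319477 reads and 9522 detected genes, against 307466.5 reads and 8549 genes in low-cycle cells and 308707 reads and 9925 genes in M-high cells.

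A cell copies its genome once per division. In G1 the origin recognition complex, with Cdc6 and Cdt1, loads the ring-shaped Mcm2 to Mcm7 helicase onto origins, a step called licensing. At the G1/S transition cyclin E and Cdk2 release the E2F transcription factors from the retinoblastoma proteins, and E2F targets include the licensing genes, the enzymes of deoxynucleotide synthesis and the sliding clamp Pcna. Genes of G2 and mitosis follow later and are repressed outside that phase by a complex that binds the promoter element called the cell cycle genes homology region (CHR). ISCs at the crypt base, which express the R-spondin receptor Lgr5 and the secreted glycoprotein Olfm4, are among the most actively dividing stem cells of the adult body.

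The rule therefore used genes of both kinds, and their promoters are shown because the elements were found more often in one set than in the other, with exceptions in both. In RefSeq windows of 300 bases, 250 before to 50 after an annotated start in GRCm38.p6, an E2F element was searched as TTTGGCGC, TTTCCCGC, TTTCGCGC or TTTGCCGC on both strands. It was present in 5 of the 9 S genes with an entry (55.6%), in 1 of the 8 M genes with an entry (12.5%, Cdk1) and in 2.6% of all 27025 genes. Pcna, Mcm2, Tyms and Rrm2 had no match to these letters. The CHR, searched as TTTGAA on both strands, was present in 6 of the 8 M genes (75.0%), in 1 of the 9 S genes (11.1%, Mcm2) and in 20.2% of all genes. Ccnb1 and Birc5 had neither. Mcm4, Aurkb and Tpx2 had no entry. Matches on opposite strands can overlap, as they do in the Mcm5 and Mcm6 windows. These are letter matches, which do not show binding. Capitals mark E2F matches in the 4 S-gene promoters below, Mcm5 at chr8:75109259-75109558 on the plus strand, Mcm6 at chr1:128359656-128359955 on the minus strand, Mcm3 at chr1:20820263-20820562 on the minus strand and Cdc6 at chr11:98907901-98908200 on the plus strand. They mark CHR matches in the 2 M-gene promoters, Ccnb2 at chr9:70421505-70421804 and Mki67 at chr7:135716330-135716629, both on the minus strand. All are written 5′ to 3′ along the strand of the gene.
Mcm5: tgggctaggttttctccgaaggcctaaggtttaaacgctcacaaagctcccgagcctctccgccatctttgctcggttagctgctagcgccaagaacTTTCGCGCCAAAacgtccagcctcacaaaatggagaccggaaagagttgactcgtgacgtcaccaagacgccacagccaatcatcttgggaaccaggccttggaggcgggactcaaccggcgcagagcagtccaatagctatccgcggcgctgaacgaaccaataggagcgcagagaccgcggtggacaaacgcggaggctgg
Mcm6: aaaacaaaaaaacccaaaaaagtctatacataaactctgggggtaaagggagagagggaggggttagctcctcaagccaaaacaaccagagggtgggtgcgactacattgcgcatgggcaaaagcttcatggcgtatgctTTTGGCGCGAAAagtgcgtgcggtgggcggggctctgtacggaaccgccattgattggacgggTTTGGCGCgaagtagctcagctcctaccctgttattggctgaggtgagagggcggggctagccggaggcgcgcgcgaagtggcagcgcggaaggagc
Mcm3: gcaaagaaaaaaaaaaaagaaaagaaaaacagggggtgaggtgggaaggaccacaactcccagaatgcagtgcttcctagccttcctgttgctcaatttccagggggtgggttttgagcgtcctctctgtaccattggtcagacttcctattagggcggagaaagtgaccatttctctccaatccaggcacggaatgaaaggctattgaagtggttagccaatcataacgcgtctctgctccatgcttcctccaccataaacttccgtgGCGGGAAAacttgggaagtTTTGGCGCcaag
Cdc6: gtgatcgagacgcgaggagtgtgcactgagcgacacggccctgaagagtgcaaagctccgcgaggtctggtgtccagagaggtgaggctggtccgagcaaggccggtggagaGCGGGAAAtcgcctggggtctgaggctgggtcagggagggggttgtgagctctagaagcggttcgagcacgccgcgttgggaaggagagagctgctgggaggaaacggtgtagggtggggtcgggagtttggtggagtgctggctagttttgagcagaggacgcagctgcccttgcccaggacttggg
Ccnb2: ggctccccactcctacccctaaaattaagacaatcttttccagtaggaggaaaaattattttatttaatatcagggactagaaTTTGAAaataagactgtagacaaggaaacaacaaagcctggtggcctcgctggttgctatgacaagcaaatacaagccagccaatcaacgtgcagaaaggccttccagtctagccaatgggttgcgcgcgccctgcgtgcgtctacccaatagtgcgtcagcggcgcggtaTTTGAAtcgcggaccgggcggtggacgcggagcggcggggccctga
Mki67: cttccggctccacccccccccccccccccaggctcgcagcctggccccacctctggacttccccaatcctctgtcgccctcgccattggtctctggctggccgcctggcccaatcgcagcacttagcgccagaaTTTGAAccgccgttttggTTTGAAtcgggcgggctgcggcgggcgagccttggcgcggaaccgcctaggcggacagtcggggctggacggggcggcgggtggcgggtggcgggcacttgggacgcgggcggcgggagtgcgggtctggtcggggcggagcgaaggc

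The median S score was 6.47 in members, 3.34 in low-cycle cells and 5.94 in M-high cells, and the median M score was 2.26, 1.01 and 8.25. In the 7 mice the median S score of members ran from 6.06 to 6.85. Of the 529 M-high cells, 365 had an S score above the members' cut, so the members hold cells with replication genes and few mitotic transcripts, and not every cell with replication genes. The values that chose the members are given here as a description, without a test.

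**Figure D1:**
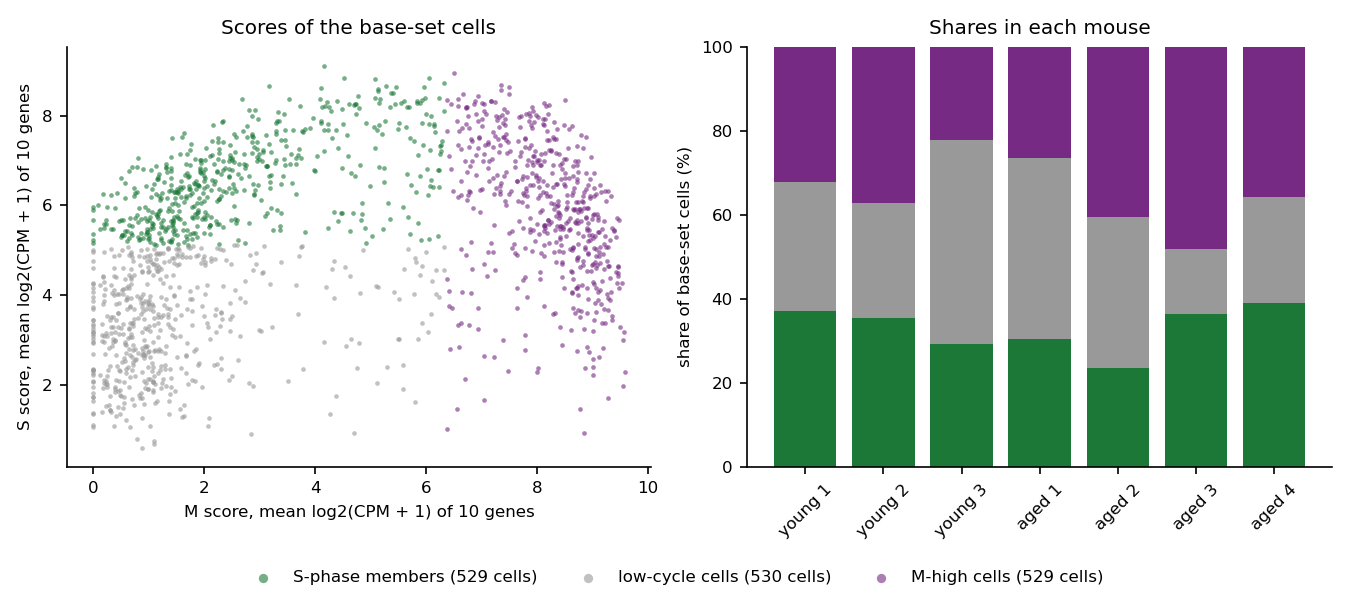
Left, M score (x axis) against S score (y axis) of the 1588 base-set cells, both as mean log2(CPM + 1) of 10 genes, with 1 point per cell coloured by class. Right, share of each mouse's base-set cells (%) in each class, where members (green, bottom) were fewest in aged mouse 2 (23.5%) and most frequent in aged mouse 4 (38.9%).

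To determine whether aging altered how many ISCs were in this state, the share of base-set cells that were members was compared between mice. It was 37.1%, 35.4% and 29.3% in the young mice (34.0% ± 4.12, SD, n = 3) and 30.5%, 23.5%, 36.5% and 38.9% in the aged mice (32.4% ± 6.86, SD, n = 4). The ages overlapped: the highest and the lowest share were both in aged mice. The difference of -1.59 percentage points gave p = 0.857 in a two-sided exact permutation test, whose smallest possible p over the 35 divisions of the mice is 0.0286. It turned positive without young mouse 1 (0.21 points) or without aged mouse 2 (1.56 points). The number that ends each cell's code divided the cells into 5 groups of 384. The labels do not say what this number is. It is called a lane here because the paper sequenced 384 cells per lane, but its sorting plates also had 384 wells. In the lanes that held both ages the aged share was lower. The difference was 10.2 points (aged mouse 1, 30.5%, against young mouse 2, 40.7%), 6.8 points (aged mouse 2, 23.5%, against young mouse 2, 30.3%) and 0.6 points (aged mouse 3, 36.5%, against young mouse 1, 37.1%). The comparisons with aged mice 1 and 2 share young mouse 2, whose own share was 40.7% and 30.3% in these lanes, so they are not independent. Aged mouse 4 and young mouse 3 each filled a lane of their own. The base set itself took up less of the aged samples, 87.5%, 94.6% and 92.6% of the cells with at least 1000 detected genes in young and 88.4%, 82.3%, 72.5% and 80.1% in aged mice. As a share of those cells, a denominator chosen after the data were seen, members were 32.5%, 33.5% and 27.1% in young (31.0% ± 3.43, SD, n = 3) and 27.0%, 19.4%, 26.5% and 31.1% in aged mice (26.0% ± 4.89, SD, n = 4). The ages overlapped again, and the difference of -5.06 points gave p = 0.114 in the exact permutation test.

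The shares of the other classes overlapped between ages as well. Low-cycle cells were 35.6% ± 11.4 (SD, n = 3) of the base set in young and 29.9% ± 12.2 (SD, n = 4) in aged mice (exact permutation p = 0.571). M-high cells were 30.5% ± 7.65 (SD, n = 3) and 37.7% ± 9.13 (SD, n = 4) (exact permutation p = 0.343), a difference of 7.25 points that was 0.476 without young mouse 3 and 11.0 without young mouse 2. After Benjamini-Hochberg adjustment over the 3 shares these exact permutation p-values were 0.857 for members, 0.856 for low-cycle cells and 0.856 for M-high cells.

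The members' identity was checked on 28 stem cell markers, of which Lgr5 and Olfm4 were used by the rule. Summed over the other 26, members held 10200 to 11600 CPM in young and 9410 to 10800 CPM in aged mice, against 11700 to 12000 CPM and 6850 to 11200 CPM in low-cycle cells. Compared with the lists of 7 other lineages (Paneth, goblet, tuft and enteroendocrine cells, enterocytes, stroma and immune cells), the stem cell list had the highest mean log2(CPM + 1) in 94.2%, 96.0% and 93.1% of young members and in 94.1%, 80.6%, 84.0% and 85.1% of aged members when these 26 genes stood for it. With all 28 stem cell markers, Paneth cell markers led in 5.77%, 0.806% and 1.96% of young and 1.96%, 13.9%, 8.0% and 5.26% of aged members. The lowest stem-led shares were thus in aged mice 2, 3 and 4. The 15 Paneth cell markers, which include the lysozyme gene Lyz1 and the defensins, summed to 27400, 5620 and 2010 CPM in young and 1150, 34300, 36200 and 10800 CPM in aged members. These levels were high in young mouse 1 and aged mice 2 and 3. Age differences were therefore also computed in stem-marker-led members alone, by all 28 stem cell markers, and are given below where they moved. No doublets were called.

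Markers from outside the epithelium were nearly absent. The 11 immune markers summed to 6.45 to 19.7 CPM in young and 14.2 to 36.9 CPM in aged members, with Cd3g, Cd8a and Gzmb at 0, and the 11 stromal and endothelial markers to 0.184 to 18.2 CPM. Enteroendocrine markers summed to 25.1 to 126 CPM in young and 71.4 to 596 CPM in aged members. Tuft cell markers summed to 7.51 to 263 CPM and goblet cell markers to 139 to 1680 CPM.

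Lgr5 itself (chr10:115450311-115587780, GRCm38) was at 352, 428 and 439 CPM in young and 331, 352, 358 and 389 CPM in aged members. The ages overlapped, and no test was read because the rule used this gene. Low-cycle cells of the same mice held 570, 650 and 570 CPM and 480, 426, 268 and 391 CPM of Lgr5, and the median log2 difference of members from them was -0.38. Olfm4 was at 16300, 19000 and 14000 CPM in young and 20600, 18700, 16800 and 16400 CPM in aged members and differed from low-cycle cells by a median of 0.01 on the log2(CPM + 1) scale. Over the 28 stem cell markers the median difference was -0.04. Ascl2, a Wnt-driven transcription factor of ISCs, the water channel gene Aqp4 and Cdca7, a factor in chromatin remodelling and DNA methylation, were higher in members in 7 of 7 mice, and no stem cell marker was lower in all 7. These 3 of 28 markers are a share near that of all genes, 11.9% of which were higher in all 7 mice, so nothing is read from them.

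The 10 S genes were higher in members than in low-cycle cells in 7 of 7 mice, as the choice of members requires, and the size of the difference varied between them. Differences of this kind are on the log2(CPM + 1) scale and are given as the median of 7 mice. Mcm2 differed by 1.64, Mcm7 by 1.71, Pcna by 1.78, Mcm6 by 1.86, Tyms by 1.87, Mcm4 by 2.45, Mcm3 by 2.97, Mcm5 by 3.05, Rrm2 by 3.39 and Cdc6 by 4.85. Cdc6 was close to absent in low-cycle cells, whereas Mcm2 was not. Mcm2 was at 340, 347 and 258 CPM in young and 357, 258, 350 and 252 CPM in aged members, and at 54.8 to 153 CPM in low-cycle cells. Cdc6 was at 62.3, 40.9 and 31.0 CPM in young and 35.8, 50.2, 44.3 and 30.6 CPM in aged members. In low-cycle cells Cdc6 was at 0.327, 0.456 and 0.897 CPM and at 0.0864, 0.566, 4.85 and 0.358 CPM. Every mouse was lower in low-cycle cells, without overlap.

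Replication genes outside the rule were taken as 7 lists of 100 genes. Of these, 86 were higher in members than in low-cycle cells in 7 of 7 mice and none was lower in all 7, with a median difference of 1.66. Of the 15226 genes of at least 1 CPM, 11.9% were higher in all 7 mice and 2.19% were lower, and the median of all genes was 0.08. Because the classes were cut on genes of the same programme, nothing is read from the count itself. The order within the lists is what follows, by the step at which each product acts.

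In the licensing list, 7 of 11 genes were higher in 7 of 7 mice, with a median of 0.64. Orc1, the cell cycle-regulated subunit of the origin recognition complex, had the largest difference at 2.50, Mcm9, a helicase that acts in repair, the median at 0.64 and Orc3, a subunit of the core complex, the smallest at 0.13. Cdt1, the partner of Cdc6 in loading the helicase, was at 254, 260 and 187 CPM in young and 241, 233, 237 and 182 CPM in aged members. Low-cycle cells of the same mice held 43.5 to 71.9 CPM of Cdt1 and M-high cells 95.6 to 142 CPM, so members stood above both classes in each mouse.

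Helicase activation and origin firing followed with 12 of 12 genes higher and a median of 1.86. Cdc45, which joins the loaded Mcm ring in the active helicase, had the largest difference at 3.55 and Dbf4, the regulatory subunit of the Cdc7 kinase, the smallest at 0.69. Cdc45 was at 59.7, 29.2 and 20.8 CPM in young and 25.6, 41.1, 34.3 and 38.8 CPM in aged members, against 0.573 to 4.85 CPM in low-cycle cells. The highest low-cycle value lay below the lowest member value.

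The polymerase list had 11 of 12 genes higher (median 1.54), from Pole, the catalytic subunit of the leading-strand polymerase, at 3.46 to Pold4, an accessory subunit of polymerase delta, at 0.01. The list of clamp loading, Okazaki fragment joining and single-strand binding had 15 of 17 (median 1.79), from Rpa2, a subunit of the single-strand binding protein, at 2.39 through Rpa1 at 1.79 to Rnaseh2c, a subunit of ribonuclease H2, at 0.31. Deoxynucleotide supply had 9 of 11 (median 1.07), where Rrm1, the large subunit of ribonucleotide reductase, had the largest difference at 2.47, the thymidylate kinase gene Dtymk the median at 1.07, and Rrm2b, the p53-regulated small subunit, the smallest at -0.22. The small subunit used in S phase, Rrm2, was among the genes of the rule.

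In the list of chromatin assembly and maintenance methylation, 13 of 14 genes were higher (median 1.25). Uhrf1, which recognises hemimethylated DNA and recruits the maintenance methyltransferase, differed by 4.11 and Supt16, a subunit of the histone chaperone FACT, by 0.45. Uhrf1 was at 169, 204 and 165 CPM in young and 149, 181, 196 and 237 CPM in aged members, and at 5.92 to 20.3 CPM in low-cycle cells. In the list of replication checkpoint and repair, 19 of 23 genes were higher (median 1.85), with Clspn, the adaptor of the Chk1 kinase, largest at 4.20, Tipin of the fork protection complex at 1.85 and Atrip, the partner of the Atr kinase, smallest at 0.17. Clspn was at 87.3, 53.3 and 33.1 CPM in young and 45.4, 72.9, 85.7 and 49.0 CPM in aged members, against 0.389 to 8.58 CPM in low-cycle cells.

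Among genes with a mean of at least 20 CPM over the 3 classes and outside the rule, those with the largest difference in the mouse where it was smallest were Uhrf1 (3.28 in that mouse), Clspn (3.18), Tcf19 (2.75), Cdc45 (2.59), Exo1 (2.58), Slfn9 (2.54), Brca1 (2.47) and Fam111a (2.40). Exo1 encodes an exonuclease of mismatch repair and Brca1 a factor of homologous recombination and fork protection. The genes lower in members than in low-cycle cells by the same rule included Gm14851, Defa30, Alpi, Guca2b, Ccl6, Hist1h2bc and Kdm5b. Defa30 encodes a Paneth cell defensin, while Alpi, intestinal alkaline phosphatase, is an enterocyte gene. Of 15 Paneth cell markers 9, and of 15 enterocyte markers 6, were lower in members in 7 of 7 mice, with medians of -2.05 and -1.97. Hist1h2bc, a histone gene that can yield polyadenylated transcripts, was at 26.1, 20.9 and 13.4 CPM in young and 17.6, 27.9, 29.7 and 27.9 CPM in aged members, against 33.7 to 67.2 CPM in low-cycle cells. Kdm5b, a histone H3 lysine demethylase, was at 18.4 to 46.3 CPM in members and 58.9 to 83.4 CPM in low-cycle cells, again without overlap.

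**Figure D2:**
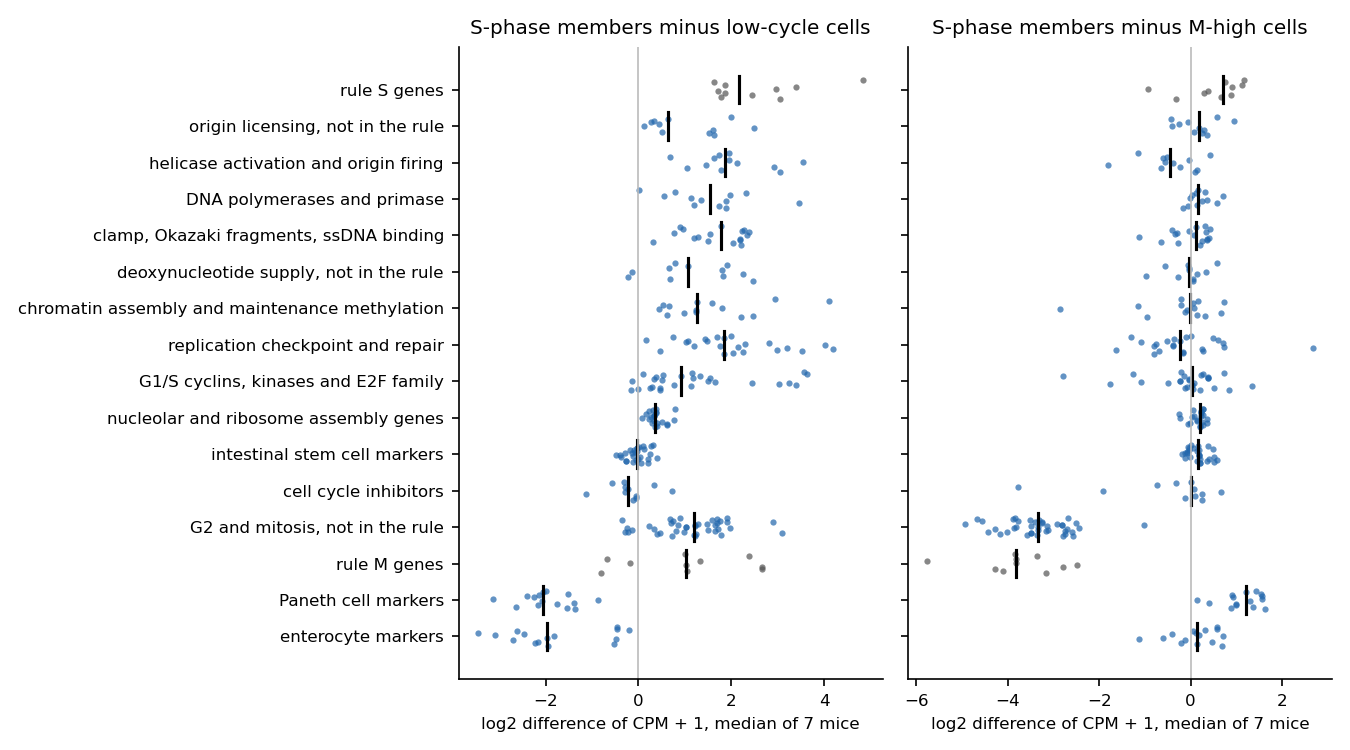
Log2(CPM + 1) difference of S-phase members from low-cycle cells and from M-high cells for the genes of each list, 1 point per gene at the median of 7 mice. Bars mark list medians. The medians of the replication lists lie to the right of 0 against low-cycle cells and near 0 against M-high cells, where the list of G2 and mitosis has a median of -3.33.

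The G1/S list of cyclins, kinases and E2F factors had 18 of 27 genes higher in members than in low-cycle cells in 7 of 7 mice (median 0.91). Mybl2, an E2F target whose product acts at promoters of later cell cycle genes, had the largest difference at 3.64, Skp2, the ubiquitin ligase subunit that removes p27, was at 0.91 and the retinoblastoma family member Rbl2 had the smallest at -0.16. E2f7 and E2f8, the repressive E2F factors, differed by 3.58 and 3.24, and the cyclin E genes Ccne1 and Ccne2 by 3.40 and 3.03. The D-type cyclin gene Ccnd1, a G1 gene, differed by 0.39. Ccne1 was at 8.43, 14.1 and 13.1 CPM in young and 11.3, 18.1, 9.94 and 10.8 CPM in aged members, and at 0 to 1.06 CPM in low-cycle cells. Of 12 cell cycle inhibitors, 11 of them with at least 1 CPM, none was higher in all 7 mice and 1 was lower. The median of the inhibitors was -0.23, with Cdkn2c highest at 0.72 and Cdkn2b lowest at -1.12. No read of Cdkn2a was found in members. Of 22 nucleolar and ribosome assembly genes, 11 were higher in all 7 mice, with a median of 0.35.

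Mitotic genes were present in members at lower levels than in M-high cells, which the removal of M-high cells imposes. Of 40 genes of G2 and mitosis outside the rule, 19 were higher than in low-cycle cells in 7 of 7 mice (median 1.20) and 40 were lower than in M-high cells in 7 of 7 (median -3.33). Pbk, a mitotic kinase gene, had the largest difference from low-cycle cells at 3.09 and Cdc25c, the phosphatase that activates Cdk1 at entry into mitosis, the smallest at -0.36. The 10 M genes divided in the same way. Ccnb1 and Ccnb2, the cyclin B genes, and Cdc20 differed from low-cycle cells by -0.80, -0.67 and -0.19. Ube2c, Birc5, Mki67 and Tpx2 differed by 1.01, 1.03, 1.04 and 1.33, and Aurkb, Cdk1 and Top2a by 2.38, 2.67 and 2.67. Cdk1, the mitotic kinase, was at 107, 44.9 and 23.1 CPM in young and 28.4, 54.4, 39.3 and 40.4 CPM in aged members, between 3.37 to 7.46 CPM in low-cycle cells and 218 to 294 CPM in M-high cells.

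Set against M-high cells, the 100 replication genes had a median difference of -0.02, with 21 higher in members in 7 of 7 mice and 15 lower, where 5.79% of all genes were higher and 7.07% lower. Of the rule's S genes, Mcm2 differed from M-high cells by 1.16, Mcm4 by 1.12, Mcm3 by 0.91, Mcm6 by 0.88, Cdc6 by 0.75, Mcm5 by 0.67, Pcna by 0.39 and Mcm7 by 0.29. Tyms differed by -0.32 and was higher in members in 1 of 7 mice, and Rrm2 differed by -0.93 and was higher in 0 of 7. Rrm2 was at 54.7, 44.6 and 16.3 CPM in young and 40.7, 67.0, 30.9 and 42.4 CPM in aged members, against 60.4 to 120 CPM in M-high cells. Outside the rule, Cdt1 differed from M-high cells by 0.95 and the activator E2f1 by 1.35, whereas Ccna2, cyclin A2 of S and G2 phase, differed by -2.78. Origin firing genes had a median of -0.45, with 1 of 12 higher and 3 lower.

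Among genes outside the rule with a mean of at least 20 CPM, the one higher in members than in M-high cells by the largest margin in its smallest mouse was Ung, the uracil-DNA glycosylase that removes uracil from newly made DNA. Ung (chr5:114130386-114139323, GRCm38) was at 120, 70.2 and 85.1 CPM in young and 109, 51.3, 87.7 and 62.1 CPM in aged members. M-high cells of the same mice held 14.5, 10.2 and 11.0 CPM and 14.5, 14.6, 23.7 and 14.0 CPM, and low-cycle cells 10.0 to 52.8 CPM. The difference from M-high cells was 1.74 to 2.97 on the log2 scale, with a median of 2.67, and that from low-cycle cells a median of 1.69, so that Ung was highest in members in each mouse. The next genes by the same rule were Aldoa, a glycolytic aldolase, Pnpla7, Abcc5 and Gpr180. Aldoa was at 172 to 451 CPM in members and 230 to 372 CPM in low-cycle cells but at 75.7 to 133 CPM in M-high cells. The genes lowest against M-high cells were Cdc25c, Cenpa, Hmmr, Aspm and Prr11, genes of mitotic entry, centromere and spindle.

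The share of cells with at least 1 read was compared after each cell was thinned to 100000 reads, which left 511 members, 503 low-cycle cells and 515 M-high cells. Values are medians of the 7 mice. Ung was detected in 91.1% of members, 43.3% of low-cycle cells and 35.5% of M-high cells (92.0%, 51.4% and 44.4% without thinning). Cdc6 was detected in 55.8%, 4.55% and 41.5%, and Ccne1 in 30.4%, 1.85% and 26.2% (36.0%, 3.55% and 30.3% without thinning). Uhrf1 was found in 86.3%, 20.0% and 92.7% (88.5%, 32.6% and 95.2% without thinning). Later genes ran the other way between members and M-high cells: Ccna2 was detected in 66.9%, 36.4% and 100% (75.0%, 52.1% and 100% without thinning) and Ccnb1 in 18.2%, 11.1% and 97.6% (26.9%, 14.5% and 97.7% without thinning). Cells without a detected read may still hold the transcript at this depth.

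**Figure D3:**
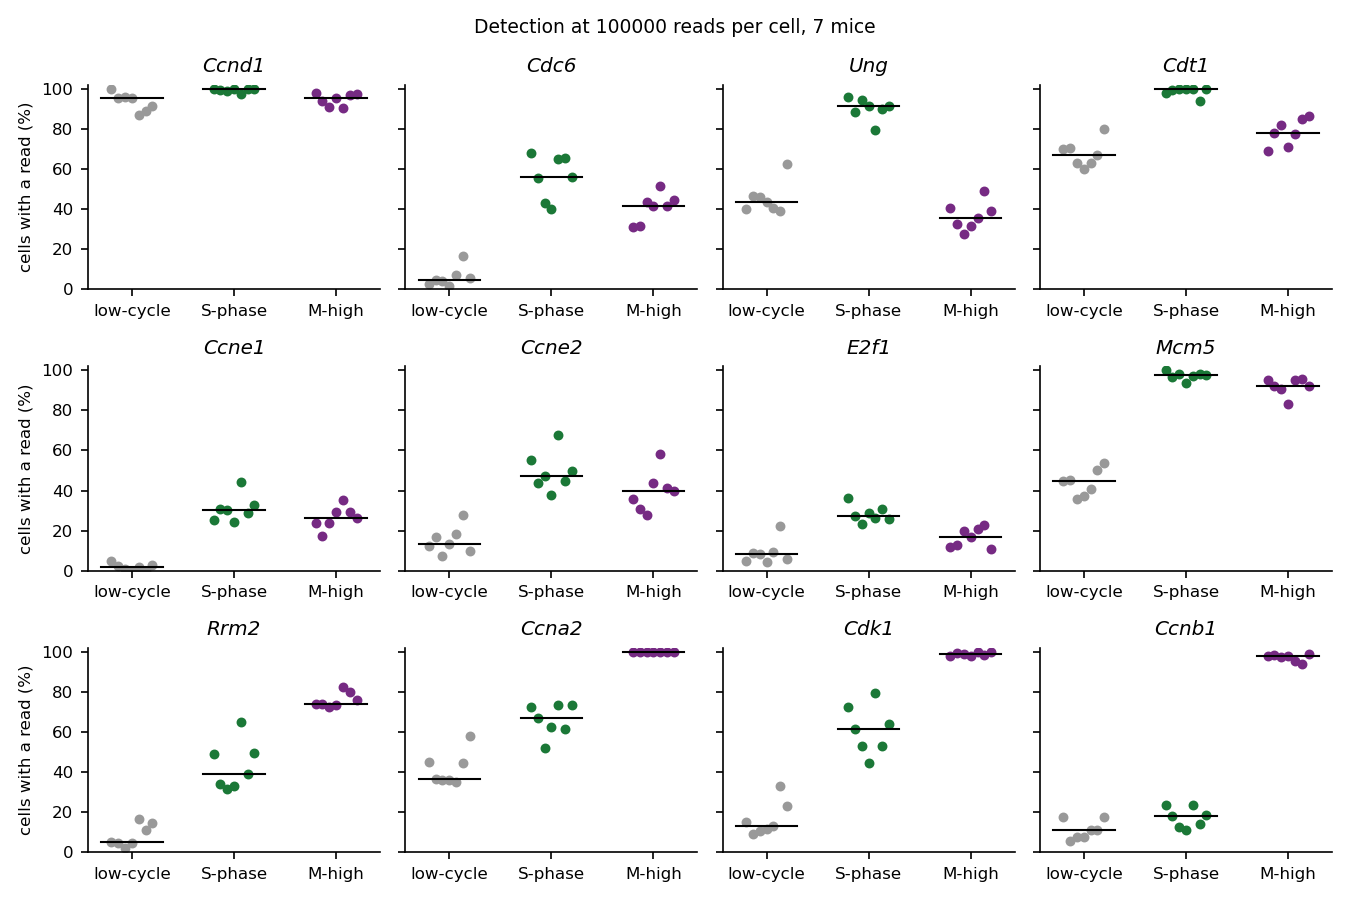
Share of cells with at least 1 read of each gene (%) after thinning to 100000 reads per cell, with 1 point per mouse in members, low-cycle cells and M-high cells. Ung is highest in members, with a median of 91.1% against 43.3% and 35.5%, and Ccnb1 separates M-high cells (97.6%) from both other classes.

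Members were not uniform. The median member had reads of 9 of the 10 S genes, the lowest had 7 and 200 members (37.8%) had all 10, against a median of 6 in low-cycle cells. Across the 529 members the 45 pairs of S genes had a median Spearman rho of 0.43, from 0.06 for Mcm2 with Rrm2 to 0.60 for Pcna with Tyms. The S score had a rho of 0.60 with the M score across members, while its rho with the number of detected genes was 0.17 and with reads 0.03. These are descriptions across cells that share mice and lanes. List means followed the S score most closely for checkpoint and repair (rho 0.83), for clamp and Okazaki fragment genes (0.83) and for chromatin assembly (0.82). The rho was 0.76 for origin firing, 0.74 for polymerases, 0.72 for G1/S genes, 0.71 for deoxynucleotide supply, 0.62 for G2 and mitosis and 0.55 for licensing. Nucleolar and ribosome assembly genes were at 0.20, cell cycle inhibitors at -0.03, stem cell markers at -0.05 and Paneth cell markers at -0.08.

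To determine which genes differed with age inside the members, the summed counts of the 3 young and 4 aged mice were compared with edgeR's quasi-likelihood test. No gene of 16621 passed a Benjamini-Hochberg adjusted p of 0.05 (0.0% called), and the lowest adjusted p was 0.0861. At an unadjusted p under 0.05 there were 769 genes (4.63%), 426 higher and 343 lower in aged mice. DESeq2 on the same counts called 81 genes (0.487%), 57 higher and 24 lower, and limma voom called 0, with 747 at an unadjusted p under 0.05. Young and aged values did not overlap for 883 genes (5.31%). The edgeR test called 4 genes without aged mouse 1, 1 without aged mouse 2 and 3 without aged mouse 3, and 0 when another mouse was left out.

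Among the 100 replication list genes none had an unadjusted p under 0.05, 34 were higher and 66 lower in aged members, and the median log2 change was -0.04, beside 8341 higher and 8280 lower and a median of 0 over all genes. Young mouse 1 had the highest summed level of all mice in each of these lists. For clamp and Okazaki fragment genes it held 1710 CPM, against 1280 and 1120 CPM in the other young mice and 1160 to 1340 CPM in aged mice. Nothing is read from the split of directions. Topbp1 and Tipin were the only list genes without overlap between the ages, with log2 changes of -0.19 (SE 0.14) and -0.15 (SE 0.14). These 2 of 100 genes are a smaller share than the 5.31% of all genes without overlap, so nothing is read from them. The genes of the rule chose the members and are given without a test. The S genes ran from a log2 change of -0.22 for Mcm4 to 0.30 for Rrm2, with a median of 0.01. Pcna was at 226, 224 and 165 CPM in young (205 ± 34.8, SD, n = 3) and 222, 263, 220 and 191 CPM in aged members (224 ± 29.4, SD, n = 4). The ages overlapped. Among the M genes, Tpx2, a spindle assembly factor, was at 4.15, 9.90 and 6.68 CPM in young and 10.3, 21.0, 13.5 and 11.4 CPM in aged members. The highest young value, 9.90 CPM, lay just under the lowest aged value. Tpx2 was the 1 of 10 M genes without overlap, beside 5.31% of all genes. Nothing is read from it, because the M cut limits its values in members.

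Among cell cycle inhibitors, 3 of 11 tested genes had an unadjusted p under 0.05, all with higher aged values, beside 4.63% of all genes. Cdkn1a, the p21 gene, was at 17.1, 24.3 and 23.3 CPM in young and 21.4, 38.4, 34.9 and 46.2 CPM in aged members, overlapping in aged mouse 1 (log2 change 0.77, SE 0.28, edgeR Benjamini-Hochberg adjusted p 0.999). This change was 0.45 without aged mouse 4 and 0.49 without young mouse 2. The others were Cdkn2b and Cdkn2c. Cdkn2b lay near the floor, with a read in 0% to 3.85% of young and 5.56% to 10.0% of aged members without thinning. Its log2 change was 2.89 (edgeR Benjamini-Hochberg adjusted p 0.999). That of Cdkn2c was 1.20 (edgeR Benjamini-Hochberg adjusted p 0.999), and 0.54 without aged mouse 3. The filter on low counts can keep a gene that is high in aged mice alone, so the direction of Cdkn2b is not independent of the filter. Nothing is read from the count of 3 of 11 inhibitors. In the G1/S list 1 of 27 genes, the kinase gene Cdk6, had an unadjusted p under 0.05, which is no more than the 4.63% of all genes. It was at 706, 681 and 732 CPM in young and 577, 512, 504 and 494 CPM in aged members without overlap (log2 change -0.39, SE 0.13, edgeR Benjamini-Hochberg adjusted p 0.987).

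**Figure D4:**
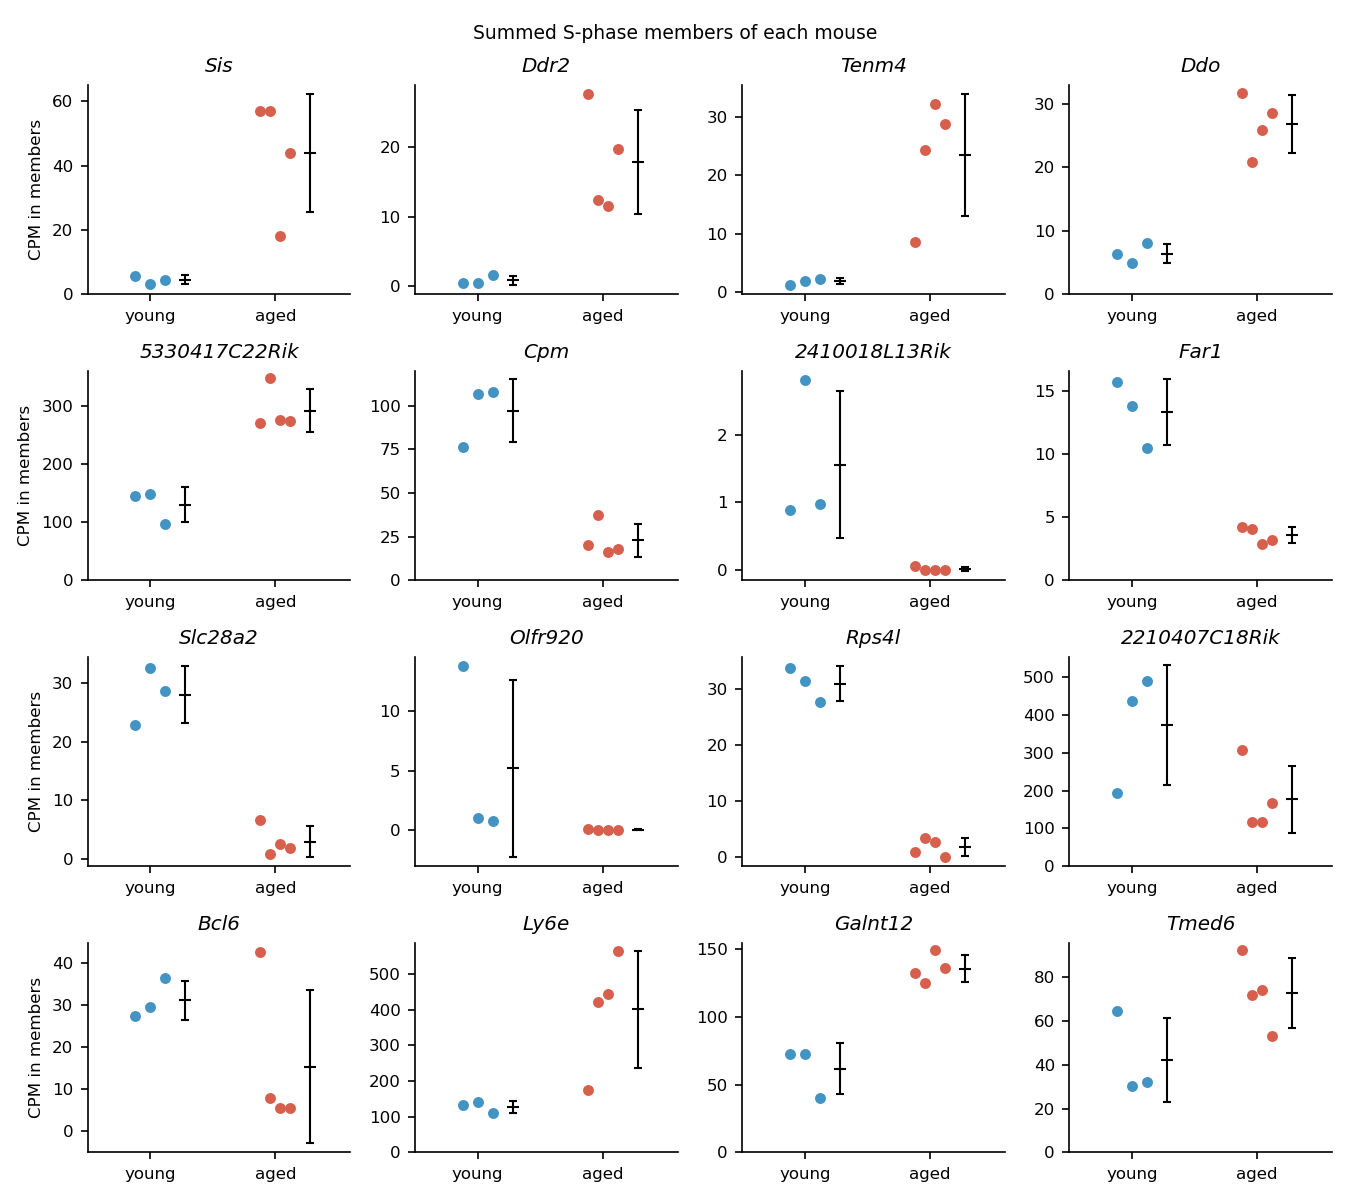
CPM in S-phase members of each mouse for the genes with the lowest p by age and age genes of the whole series, with young and aged mice side by side, 1 point per mouse, and the group mean with its SD. None passed an adjusted p of 0.05 in edgeR in members, and values are lowest in the aged mice for Cpm, Far1 and Slc28a2 and highest in them for Ddr2, Tenm4 and Ddo.

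The 5 genes with the lowest p in each direction did not pass the edgeR threshold and are given as values. Ddr2, a collagen receptor kinase gene, was at 0.511, 0.455 and 1.55 CPM in young and 27.7, 12.4, 11.6 and 19.8 CPM in aged members (log2 change 4.41, SE 0.58, edgeR Benjamini-Hochberg adjusted p 0.0861). Tenm4, a teneurin adhesion protein gene, was at 1.28, 1.91 and 2.28 CPM and at 8.63, 24.4, 32.3 and 28.8 CPM (log2 change 3.73, SE 0.49, edgeR Benjamini-Hochberg adjusted p 0.0861). Ddo, the D-aspartate oxidase gene, was at 6.33, 4.85 and 7.98 CPM and at 31.7, 20.9, 25.9 and 28.6 CPM. For these 3 genes the lowest aged value exceeded the highest young value. With cells weighted equally, the difference of the mean log2(CPM + 1) over cells was 1.49 for Ddr2 and 2.28 for Tenm4. That scale is not the scale of summed counts, and genes read in few cells give small values on it. In stem-marker-led members alone the log2 changes of summed counts were 4.38 and 3.76. After thinning, Ddr2 was detected in 2.48% to 6.38% of young and 26.5% to 35.4% of aged members, and Tenm4 in 4.26% to 7.84% and 22.2% to 61.8%. The transcript 5330417C22Rik was at 146, 149 and 96.6 CPM in young and 271, 349, 277 and 274 CPM in aged members.

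The remaining gene with a low p and a higher aged level was Sis, the brush border enzyme sucrase-isomaltase. It was at 5.75, 2.99 and 4.50 CPM in young and 56.9, 57.0, 18.0 and 43.8 CPM in aged members (log2 change 3.37, SE 0.44, edgeR Benjamini-Hochberg adjusted p 0.0861). A single aged cell held 31.4% of the aged reads. With cells weighted equally, the difference of the mean log2(CPM + 1) was 1.42, which is on another scale than the log2 change. With the score cuts set within each mouse the log2 change of summed counts was 1.51 (edgeR Benjamini-Hochberg adjusted p 0.996). After thinning, Sis was detected in 10.6%, 9.92% and 12.7% of young and 42.2%, 20.6%, 36.7% and 18.6% of aged members (15.4%, 16.9% and 15.7% and 52.9%, 41.7%, 44.0% and 31.6% without thinning). Of 15 enterocyte markers, 14 had a positive log2 change, 6 had an unadjusted p under 0.05, all with higher aged values, and the median was 1.86, beside 4.63% of all genes at that p and a median of 0. The 2 ages did not overlap for Sis, Fabp1, Rbp2 and Slc2a2, as for 5.31% of all genes. The filter on low counts can keep a gene that is high in aged mice alone. Slc2a2, for one, had a read in 0%, 1.61% and 4.9% of young members without thinning. The direction of such genes is not independent of the filter, and nothing is read from these counts. Fabp1, a fatty acid-binding protein gene, was at 14.6, 8.94 and 7.41 CPM in young and 15.5, 44.6, 25.4 and 127 CPM in aged members, where 54.5% of its reads came from 1 cell. Its log2 change of 2.46 ranged from 1.70 to 4.34 when each mouse was left out. It was 4.34 without aged mouse 3, 4.05 without aged mouse 4 and 3.93 without young mouse 2. The summed enterocyte level was 961, 1130 and 1300 CPM in young and 1210, 1220, 1200 and 2080 CPM in aged members. Low-cycle cells held 1970, 2130 and 1980 CPM in young and 1180, 3320, 3900 and 3320 CPM in aged mice, so higher levels in most aged mice were not particular to members. The edgeR test in stem-marker-led members alone called 0 genes of 16377 (716 at an unadjusted p under 0.05). There the log2 change was 2.45 for Sis (adjusted p 0.531), 1.15 for Rbp2 and 0.83 for Fabp1 (edgeR, Benjamini-Hochberg adjusted p 0.999 for both).

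Genes with lower aged values were led by Cpm, the carboxypeptidase M gene, at 76.5, 107 and 108 CPM in young and 20.1, 37.1, 16.4 and 18.0 CPM in aged members (log2 change -2.03, SE 0.29, edgeR Benjamini-Hochberg adjusted p 0.11). Slc28a2, a nucleoside transporter gene, was at 22.9, 32.6 and 28.6 CPM and at 6.67, 0.783, 2.52 and 1.77 CPM (log2 change -3.22, SE 0.55, edgeR Benjamini-Hochberg adjusted p 0.231). Far1, a fatty acyl-CoA reductase gene, was at 15.7, 13.8 and 10.5 CPM and at 4.23, 4.07, 2.89 and 3.22 CPM (log2 change -1.83). With cells weighted equally, its difference of mean log2(CPM + 1) was -0.82, on another scale. In all 3 the highest aged value was under the lowest young value. Olfr920 and 2410018L13Rik rest on few cells: 74.2% of the Olfr920 reads came from 1 cell, and 2410018L13Rik had a read in 5.48% of members.

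Age genes of the whole series, a list of 10 chosen on these same cells, were read in members as no independent evidence. Of the 10 genes, 9 had an unadjusted p under 0.05 in members, 5 higher and 4 lower, beside 4.63% of all genes. The ages did not overlap for 7, beside 5.31% of all genes. Nothing is read from these counts, because the list was chosen on the same cells. Rps4l, a processed pseudogene whose reads may be shared with its parent gene, was at 33.7, 31.4 and 27.6 CPM in young and 0.796, 3.37, 2.67 and 0 CPM in aged members (log2 change -4.23, SE 0.97, edgeR Benjamini-Hochberg adjusted p 0.509). Ly6e, a GPI-anchored surface protein gene, was at 132, 142 and 110 CPM and at 174, 421, 444 and 563 CPM (log2 change 1.71, SE 0.35, edgeR Benjamini-Hochberg adjusted p 0.351). Galnt12, a mucin-type glycosyltransferase gene, was at 72.8, 72.3 and 39.9 CPM and at 132, 125, 149 and 136 CPM. Among the 28 stem cell markers the median log2 change was -0.11. Slc14a1, Tnfrsf19 and Sorbs2 had lower and Aqp4 higher aged values at an unadjusted p under 0.05, 4 of 28 beside 4.63% of all genes, and Sorbs2 was at 285, 253 and 289 CPM in young and 163, 163, 226 and 183 CPM in aged members.

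Whether an age difference was particular to members was asked by testing the age effect in members minus that in the other classes. No gene of 21174 passed an adjusted p of 0.05 in edgeR against low-cycle cells (0.0% called, 922 at an unadjusted p under 0.05) or against M-high cells (0.0% called, 707 at an unadjusted p under 0.05). DESeq2 called 34 genes in each contrast and limma voom 0. By the same edgeR test, age within low-cycle cells called 0 genes of 17488 (925 at an unadjusted p under 0.05) and age within M-high cells called 3 of 17562, Ddr2 and Ly6e higher and Rps4l lower. Against low-cycle cells, Akt2, a kinase gene of the insulin pathway, was among the 3 lowest p in its direction, at 48.7, 30.1 and 45.3 CPM in young and 19.4, 22.1, 24.0 and 22.1 CPM in aged members. The age effect on Akt2 was lower in members than in low-cycle cells by a log2 difference of -1.33, with an adjusted p of 1.0 by edgeR with Benjamini-Hochberg adjustment. It was -0.79 without young mouse 1 and -0.81 with thinned reads. Elf4, an Ets family transcription factor gene, had the opposite sign, with a log2 difference of 1.02 (SE 0.23), and did not pass either. In members the ages overlapped for Elf4, at 30.3, 34.8 and 52.1 CPM in young and 27.3, 46.7, 33.7 and 52.1 CPM in aged mice (log2 change 0.09). The difference lay in low-cycle cells, with 52.5, 40.8 and 61.4 CPM in young and 21.1, 28.3, 14.4 and 37.8 CPM in aged mice. Against M-high cells, Smox, the spermine oxidase gene, had a log2 difference of -1.61, which was -0.46 without aged mouse 1, -0.50 without young mouse 1 and -0.62 without young mouse 3, and Myg1 one of -1.04. The lowest p in the positive direction were of the Paneth cell defensin gene Defa27 and the defensin pseudogenes Defa-ps6 and Defa-ps7. These are near-identical copies whose reads may be split between them, and they rest on few cells. In this order, 3.59%, 9.83% and 11.0% of members had a read. A single cell held 57.8%, 52.2% and 45.9% of the young reads and 38.7%, 22.3% and 16.6% of the aged reads. Defa27 was near the floor, at 0.0271 to 5.24 CPM in members. Defa27 had a log2 difference of 5.43, Defa-ps6 of 5.09 and Defa-ps7 of 4.41, and without young mouse 3 they were at 0.35, 2.47 and 0.14. Without aged mouse 3 they were at 1.74, 1.65 and 0.33, without aged mouse 2 at 2.44, 2.86 and 1.81, and without aged mouse 4 at 2.50, 2.31 and 1.13. In stem-marker-led cells alone Defa-ps6 was at 0.68 and Defa-ps7 at 0.76.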

How the data were processed

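Single Lgr5-high ISCs of 3 young and 4 aged mice were sequenced. By the number that ends each cell's code they formed 5 groups of 384 cells, called lanes here though the labels do not name them. Per the labels, the authors aligned reads with HISAT2 to GRCm38 and counted them per gene with HTSeq, and the deposited values are raw counts for 55471 genes in 1920 cells. Tool versions, counting annotation and strand setting were not given in the sources used here. Of the genes, 327 had no matching symbol (0.0307% of counts). Overlapping and antisense genes may therefore share reads.

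From these counts, cells were selected and scored as described, and counts were summed per mouse and class. The members and the gene lists were chosen with earlier results of these data known. Age was tested with edgeR 4.0.16 (TMM scaling, filterByExpr, quasi-likelihood test, Benjamini-Hochberg adjustment over all genes tested, threshold 0.05) in R 4.3.3, and shares with exact permutation tests over mice. Interactions were fitted over the classes of the same mice. DESeq2 1.42.0 and limma 3.58.1 (voom) were alternatives. Differences between classes are of log2(CPM + 1) per mouse and were not tested, because the classes were selected on these genes. Depth was 12776982 to 46855200 reads per mouse in members. The genes named were those of the rule, the largest, median and smallest difference of a list, the genes of extreme difference between classes, the 5 lowest p in each direction by age, the age genes of the whole series and the 3 lowest p of each interaction. A few further list members (Lgr5, Cdt1, the cyclin, E2F and repair genes shown) were named after their values were seen. A gene that met the rule is not reported here. Promoters came from RefSeq. Replicate numbers did not pair the mice.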

Additional observations from a re-analysis of the deposited data

Results flagged for a closer look

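Of 32 values examined in the 4 aged mice, 4 had an outlying mouse by Dixon's test (critical value 0.829 for 4 samples), a rate to set beside the 1 in 20 groups that chance flags. 5330417C22Rik was highest in the members of aged mouse 2 at 349 CPM, with the other aged mice at 271, 277 and 274 CPM and the gap at 0.923 of the range. Bcl6, a transcriptional repressor gene, was highest in aged mouse 1 at 42.6 CPM, with the other aged mice at 7.90, 5.64 and 5.55 CPM, a gap of 0.937 of the range, and the young mice at 27.5, 29.6 and 36.4 CPM. 2410018L13Rik and Olfr920 were each at 0.0612 CPM in aged mouse 1 and at 0 in the other aged mice, so that the gap was the whole range.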

How the results depend on the processing

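The difference in the share of members kept its negative sign under the alternatives of depth, detected-gene minimum, pseudocount and M cut, and ranged from -3.9 to 1.56 percentage points when each mouse was left out, turning positive without young replicate 1 (0.21) or aged replicate 2 (1.56). As a share of all cells with at least 1000 detected genes, an alternative chosen after seeing the data, it was -5.06 (exact permutation p = 0.114). Within the lane of aged mouse 1 and young mouse 2 it was -10.2. The low-cycle share ranged from -10.4 to 1.3 points over left-out mice, positive without young replicate 3, and the M-high share from 0.476 to 11.0. Age calls in members, 0 in the main test, were 81 with DESeq2, 32 with cells weighted equally, 12 without a filter on low counts and 13 with reads thinned to 100000 per cell, and 0 to 4 with a mouse left out (4 without aged replicate 1, 1 without aged replicate 2, 3 without aged replicate 3). The causes were not tested. The interaction calls, 0 in the main test, were 34 with DESeq2 against low-cycle cells and 34 with DESeq2 against M-high cells, and 1 with thinned reads against M-high cells. The number of replication list genes higher in 7 of 7 mice was 69 to 88, against 86. With a mouse left out, 85 to 89 were higher in all remaining mice. Replicate numbers did not pair the mice: the correlations of same-numbered deviations were -0.0461, 0.0819 and -0.0969, and the fit with a replicate block called 0 genes. Among the values of named genes and of the other class shares, 675 kept their direction and side of the threshold, 51 passed it in an alternative and 1, the low-cycle share above, changed sign. Lanes held by 1 mouse cannot be told apart from that mouse, and reads without molecular identifiers limit detection in shallow cells.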

Other observations

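Further gene groups were counted in members. Of 15 enteroendocrine markers, 7 were tested by age. All 7 had a positive log2 change (median 6.39) and 5 had an unadjusted p under 0.05, beside 4.63% of all genes. None passed the adjusted threshold in edgeR and 3 passed in DESeq2. The filter on low counts can keep a gene that is high in aged mice alone. The direction of these genes is thus not independent of the filter, and nothing is read from the counts. The summed level of the list overlapped between the ages, at 126, 25.1 and 98.9 CPM in young and 323, 293, 71.4 and 596 CPM in aged members. The 7 MHC class II genes, which present antigen to CD4 T cells, had a median log2 change of 0.15 with age and none had an unadjusted p under 0.05. The 15 genes of dissociation stress, immediate early and heat shock genes that respond to tissue handling, had a median log2 change of 0.46, with 1 of 15 genes at an unadjusted p under 0.05, near the 4.63% of all genes. The part of cell handling in the age values of other genes was not tested.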
